A study of Rattus norvegicus with 16 samples.

Results

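The transcripts described here encode hormones of the anterior pituitary, measured in RNA from rat hypothalamus: Gh1 (growth hormone), Prl (prolactin), Cga (the alpha subunit that thyrotropin, luteinizing hormone and follitropin share), Lhb (the beta subunit of luteinizing hormone) and Tshb (the beta subunit of thyrotropin). They were taken as every probe set that the platform's annotation assigns to exactly 1 of these genes, which gave 5 probe sets, 1 per gene, of 31042 on the array that are not controls and of 14217 genes named by a single symbol. The 16 arrays came from male Wistar rats aged 7 to 8 weeks, 1 rat per array. Rats given restraint with linalool were restrained while they inhaled (R)-(-)-linalool, a floral-smelling alcohol of lavender oil, for 2 h. Rats given linalool inhaled it for 2 h without restraint, rats given restraint were restrained for 2 h without the odour, and control rats had neither, with 4 rats in each of the 4 groups. The study asked how the odour bears on the hypothalamic response to restraint.

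The anterior pituitary lies below the hypothalamus and releases its hormones under peptides and dopamine that hypothalamic neurons secrete at the median eminence. Its main body, the pars distalis, holds the cells that make growth hormone and prolactin in large amounts. A thin sheet of pituitary tissue, the pars tuberalis, wraps the median eminence and the stalk. In rodents the pars tuberalis is known for thyrotropin subunits, for melatonin receptors and for signalling to tanycytes, the glia that line the floor of the brain ventricle there. A dissected hypothalamus can therefore carry some of this tissue with it.

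The sequences before the starts of Cga and Tshb are shown because these transcripts were the ones that varied most, and together, between rats. Each line gives 250 bases before and 50 bases after the start that RefSeq's promoter table uses, read on the gene's own strand on the GRCr8 build, with motif matches in capitals. The Tshb window is chr2:192918005-192918304 on the minus strand, and the Cga window is chr5:54283090-54283389 on the plus strand. The Tshb start is the outer end of the gene. The Cga start, 54283340, lies 231 bases inside the outer limits of the gene, for which the gene table lists 3 transcripts, so most of the Cga window falls within those limits.
Tshb: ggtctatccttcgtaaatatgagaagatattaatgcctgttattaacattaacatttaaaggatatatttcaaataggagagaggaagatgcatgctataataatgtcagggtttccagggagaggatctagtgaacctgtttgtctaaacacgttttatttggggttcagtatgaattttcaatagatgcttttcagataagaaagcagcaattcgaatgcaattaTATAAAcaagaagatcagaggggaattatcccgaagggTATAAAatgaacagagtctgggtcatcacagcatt
Cga: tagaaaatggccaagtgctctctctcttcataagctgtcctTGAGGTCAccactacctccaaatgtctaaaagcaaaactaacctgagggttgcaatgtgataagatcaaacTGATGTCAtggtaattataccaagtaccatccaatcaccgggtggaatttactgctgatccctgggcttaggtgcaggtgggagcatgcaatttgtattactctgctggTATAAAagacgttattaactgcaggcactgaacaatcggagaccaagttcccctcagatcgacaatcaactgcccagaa

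In both windows the capitals TATAAA mark the sequence of a TATA box, at -29 to -24 in Cga and at -23 to -18 and 15 to 20 in Tshb, counted from the start. The Cga window also held TGANGTCA, the core of a cAMP response element with any base in the fourth place, at -209 to -202 and at -138 to -131, and the Tshb window did not hold it. The share of 33469 rat promoters of the same length with a match on either strand was 14.2% for TATAAA and 10.2% for TGANGTCA. A POU factor core (ATGNATA, in 9.88% of promoters), a D-box (TTANGTAA, 2.24%) and a Pitx site (TAATCC, 7.17%) had no match in either window. Searched on both strands, these letters are a description of the windows and not of factor binding.

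Values below are the deposited array signals after quantile normalization between arrays, called signals. A signal is relative light of 1 probe set, so that it ranks rats for that gene but does not compare transcript amounts between genes. Group means and changes are on the log2(signal + 16) scale, on which a fold change of a dim gene is understated. Changes were tested with limma on all 16 arrays, with Benjamini-Hochberg adjustment over the 18625 probe sets that passed a filter on low mean signal. A probe set with an adjusted p below 0.05 is called. Before normalization, the median signal of an array ran between 67.03 and 127.5. The BioC spike-in, a control added to each hybridization, read 884.4 to 1014 on 3 arrays (restraint with linalool rat 2 and linalool rats 2 and 4) and 201.3 to 271.4 on the other 13. All 3 are arrays of linalool-exposed rats, and values without them are given where they bear on a result.

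For the hormone genes, control rat 3 stood apart from the other arrays. Its Cga signal was 101.7, against 2118 to 4938 in the other 15 rats, and this gap of 4.18 on the log2 scale was the widest downward gap among the 10251 genes that passed the filter. Nmu, which encodes the peptide neuromedin U, had the second widest gap (6.115 against 86.34 to 180.7), and Tshb came next (41.43 against 115.5 to 2348). Plagl1, an imprinted zinc finger gene (154.7 against 349.8 to 954.3), and Dct, a melanin-synthesis enzyme (74.71 against 156.9 to 640.7), followed. Of 9 markers of posterior lobe, median eminence and tanycytes, control rat 3 was lowest for 3 and highest for 0. The lowest were Fndc3c1 (0.2505, against 44.11 to 79.01 in the others), Rax (29.46, against at least 37.81) and Nkx2-1 (166, against at least 199.5). Of these, Fndc3c1 and Rax did not pass the filter on low signal, and Nkx2-1 is also among the hypothalamic markers below. Vim (2448, median over rats 2271) and Gpr50 (23.42, median 21.69) were above their medians. By the number of genes at least 1 on the log2 scale beyond all other rats, control rat 3 (4 below and 2 above) was not alone: restraint with linalool rat 1 had 0 below and 7 above, and control rat 2 had 1 below and 4 above.

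Some hypothalamic markers were also at their lowest in control rat 3, and most thalamic markers at their highest. Ghrh, the growth hormone-releasing hormone of the arcuate nucleus, had 51.7, against at least 75.49 in the other rats, and the feeding peptide Npy had 551.2, against at least 756.2. Of 16 hypothalamic marker genes measured, control rat 3 had the lowest value of all rats for 6 and the highest for 0. The arcuate gene Tac3 (169.6, median 157.5) was not among the low ones. Of 8 thalamic markers it had the highest value for 5, among them the kinase gene Prkcd (959.4, against 152.7 to 555 in the others) and the transcription factor gene Tcf7l2 (1647, median over rats 628.6). Of 6 striatal markers it had the highest value for 4. Over all 14217 named genes, control rat 3 was lowest for 7.32% and highest for 7.7%. Subunit genes of GABA-A receptors stood furthest above the other rats, Gabrd (275.2 against 29.79 to 123.2) and Gabra4 (258.2 against 46.7 to 117.4). Every comparison below is given with this rat and, where it matters, without it, a choice made after its values were seen.

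**Figure D1:**
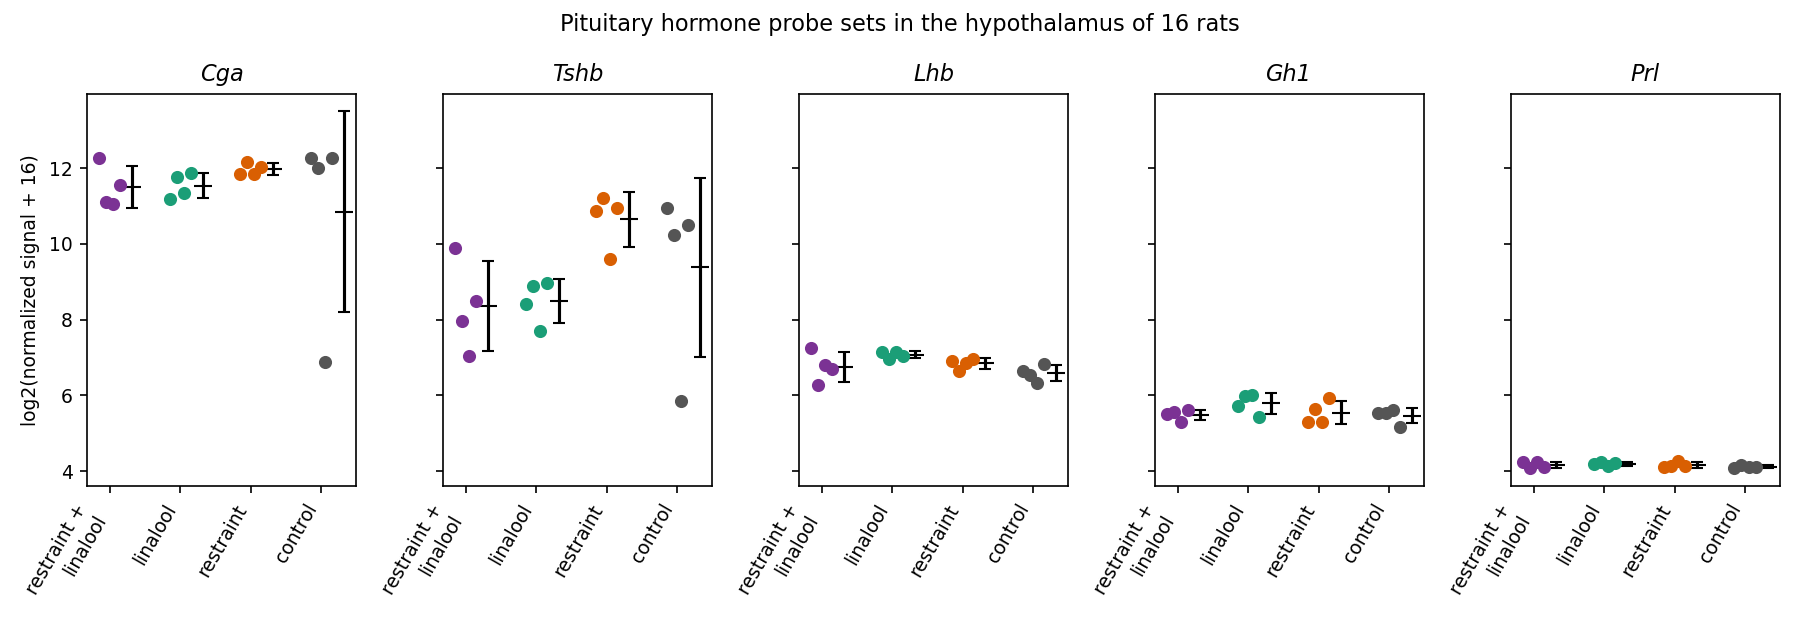
Signal of the 5 hormone probe sets in each rat, as log2(signal + 16) on the vertical axis, by group; points are rats, and the bar beside them is the mean with its SD (n = 4). Cga and Tshb reach 4938 and 2348 in signal and spread widely, with control rat 3 far below the rest, whereas Gh1 and Prl lie low in all 4 groups.

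Cga lies on chromosome 5 (54283109 to 54295464, GRCr8). Its mean level was above that of 98.2% of all probe sets. Signals were 4938, 2198, 2118 and 2980 in rats given restraint with linalool, 2296, 3451, 2560 and 3705 in rats given linalool, 3680, 4565, 3666 and 4165 in rats given restraint, and 4869, 4052, 101.7 and 4916 in control rats. The groups overlapped. The group means on the log2 scale were 11.5 ± 0.56 with restraint and linalool, 11.53 ± 0.33 with linalool, 11.97 ± 0.15 with restraint and 10.85 ± 2.65 in control rats (SD, n = 4 each). The SD of the control group comes from rat 3, since its other rats were at 4052 to 4916.

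Tshb lies on chromosome 2 (192913171 to 192918054, GRCr8), with a mean level above that of 85.6% of probe sets. Signals were 938.8, 235.3, 115.5 and 344.4 in rats given restraint with linalool, and 326.3, 455.7, 190.4 and 486.8 in rats given linalool. They were 1854, 2348, 752.1 and 1953 in rats given restraint, and 1943, 1186, 41.43 and 1422 in control rats. The linalool-exposed rats were low, with the exception of restraint with linalool rat 1, and the unexposed rats were high, with the exceptions of restraint rat 3 and control rat 3. Between the 8 exposed and the 8 unexposed rats the ranges overlapped through these rats. Group means were 8.35 ± 1.19 with restraint and linalool, 8.49 ± 0.59 with linalool, 10.65 ± 0.73 with restraint and 9.38 ± 2.37 in control rats (SD, n = 4 each).

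Lhb lies on chromosome 1 (105037457 to 105038446, GRCr8) and was near the middle of the array, above 49.4% of probe sets. Its signals were 61.61 to 135.1 (median 91.9) in rats given restraint with linalool, 108.9 to 126.3 (median 120) in rats given linalool, 83.72 to 107.8 (median 102.4) in rats given restraint, and 64.58 to 97.91 (median 80.25) in control rats. All 4 linalool rats were above all 4 control rats and above all 4 restraint rats. How many of all probe sets separate in this way was not counted. Lhb was not called for linalool minus control (limma adjusted p = 0.345). In that comparison 9.83% of all probe sets had an unadjusted limma p under 0.05. The highest and the lowest rat differed 2.19-fold, where they differed 48.5-fold for Cga and 56.7-fold for Tshb.

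Gh1 (chromosome 10, 91727883 to 91729860, GRCr8) and Prl (chromosome 17, 38287355 to 38298234, GRCr8) did not pass the filter on low signal. Gh1 was above 28.2% of probe sets, with signals of 23.35 to 32.46 with restraint and linalool, 27.1 to 48.34 with linalool, 23.07 to 44.74 with restraint and 19.94 to 33.13 in control rats. Prl was above 0.625% of probe sets, with signals of 0.8932 to 2.869 with restraint and linalool, 1.535 to 2.848 with linalool, 1.238 to 3.235 with restraint and 0.8116 to 1.886 in control rats. The groups overlapped for both. Present or absent calls of the array software were not used here, so that these values cannot be set against a detection limit.

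Of 29 other anterior pituitary genes measured, 16 passed the filter on low signal, and several of those, such as Scg2 and Chgb of secretory granules, are also used by neurons. Genes with little known use in the brain mostly did not pass it. Fshb, the beta subunit of follitropin, had signals of 19.86 to 64.39, and Pou1f1, the transcription factor that the growth hormone, prolactin and thyrotropin cells of the pars distalis depend on, had 0.9133 to 9.816. Pitx1, a pituitary homeodomain factor, had 4.151 to 52.78, and the receptor genes Ghrhr and Gnrhr had 20.5 to 46.18 and 2.339 to 35.98. Of 10 anterior pituitary genes on the list with little known use in the brain, 7 were measured, and only Tbx19 (45.95 to 87.83) passed the filter on low signal. The summed signal of the 7 was 141 to 265 in rats given restraint with linalool, 188.8 to 229.3 with linalool, 168.2 to 234.8 with restraint and 157.4 to 202.2 in control rats, and none of its members had a signal of exactly 0. As ranks among probe sets, which also depend on how well each one binds its target, Cga and Tshb were thus high, Lhb was in the middle, and Gh1, Prl, Fshb and Pou1f1 were in the part that the filter removed. These ranks do not show that a transcript was absent. Control rat 3 had the lowest value of all rats for 13 of the 29 genes and the highest for 1. Among the 13 is Gal, which is also on the hypothalamic list. For the 7 genes with little known use in the brain these counts were 2 and 0. The 2 were Pou1f1 and Pitx1, which did not pass the filter. Over all named genes control rat 3 was lowest for 7.32% and highest for 7.7%.

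Of 16 hypothalamic marker genes measured, 13 passed the filter on low signal, among them bright neuropeptide genes. The transcription factor genes Sim1 (25.05 to 60.61) and Otp (4.401 to 51.3), and Pomc, did not pass it. Signals were 2303 to 5429 for Avp (vasopressin), 4513 to 7724 for Oxt (oxytocin), 5465 to 8611 for Pmch (melanin-concentrating hormone) and 512.8 to 1852 for Hcrt (orexin). The Pomc probe set was dim in all rats (2.802 to 24.38), although Pomc neurons are a known cell type of the arcuate nucleus.

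Cga and Tshb were among the genes that differed most between rats of one group. The SD within groups was 1.41 for Tshb, rank 3 of 18625 probe sets, and 1.37 for Cga, rank 4, against a median of 0.17 over all probe sets. Without control rat 3, Tshb stayed near the top at 0.81 (rank 26), whereas Cga had 0.36 (rank 958). Lhb had 0.24 with all rats (rank 4290). In pieces of tissue, fewer cells of a type and less RNA per cell cannot be told apart.

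Within groups, rats with high Cga had high Tshb. Over the deviations of 16 rats from their group means, Pearson's r was 0.926 (permutation test within groups, p = 0.0004, adjusted p = 0.004 over 10 gene pairs) and Spearman's rho was 0.947 (p = 0.00012, adjusted p = 0.0012). Without the 2 rats whose Cga deviations from group means lay farthest from the median deviation, control rats 3 and 4, r was 0.857 (n = 14). Control rat 4 is among them because control rat 3 pulls down the mean of that group. Without control rat 3 alone r was 0.849 (permutation test, p = 0.00147, adjusted p = 0.0147). On the 13 arrays of low BioC signal r was 0.926 (permutation test, p = 0.00535, adjusted p = 0.0535). On 12 of them, without control rat 3, r was 0.855 (permutation test, p = 0.0503, adjusted p = 0.503). The other 9 pairs of hormone genes had r between -0.341 and 0.459, and none passed the test (permutation adjusted p of 0.399 or more).

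**Figure D2:**
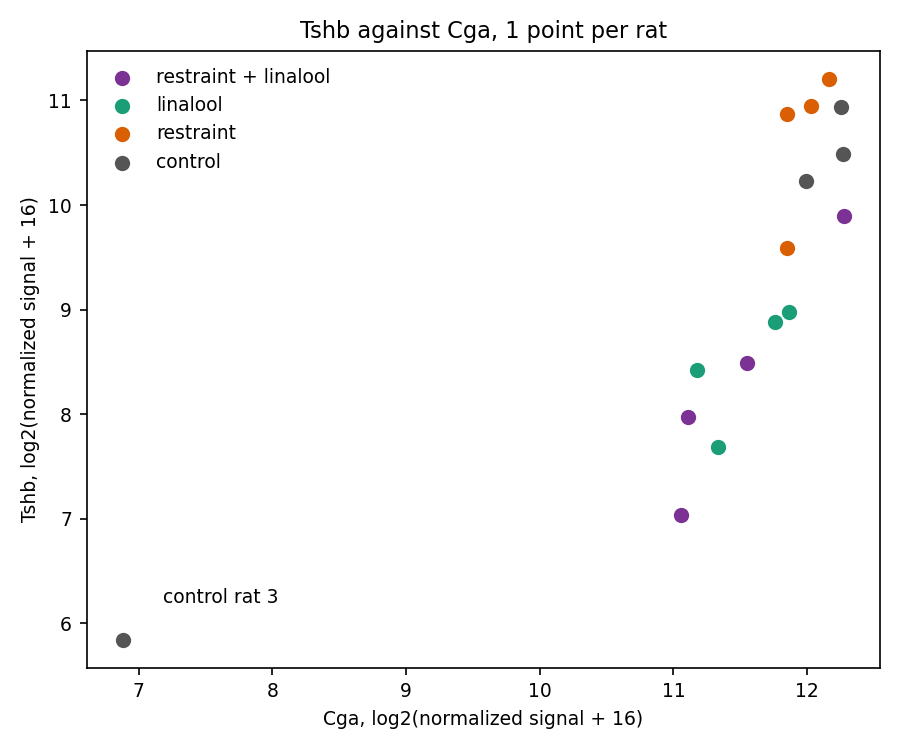
Tshb against Cga in each of 16 rats, both as log2(signal + 16), coloured by group. Control rat 3 lies alone at the lower left; among the others the linalool-exposed rats (purple and green) lie below the unexposed rats (orange and grey) at a like Cga level.

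The genes whose deviations from group means were most like those of Cga and Tshb were ranked by Pearson's r over 16 arrays, among 10248 genes. Nmu, a peptide gene known from the rat pars tuberalis and from hypothalamic neurons, ranked first for both, with r = 0.977 for Cga and 0.961 for Tshb. Without control rat 3 its r was 0.852 for Cga (rank 3, after Slc3a2 at 0.886 and Plat at 0.855) and 0.902 for Tshb (rank 1). Over all 16 arrays Dct followed with 0.916 for Cga and 0.94 for Tshb. Without control rat 3 it had 0.812 (rank 9) and 0.806 (rank 6). The next genes for Cga rested on that rat: r was 0.908 for Ppard, 0.869 for Ece2 and 0.864 for Pou2f1, and 0.401, -0.212 and 0.293 without it. For Tshb, the next were Cpsf7 (0.865), Trappc5 (0.847) and Stra6 (0.839), which had 0.721, 0.561 and 0.534 without it. Genes nearest to the mean of the 3 hormone genes that passed the filter were Dct (0.927) and Nmu (0.916). Without control rat 3 they ranked 6 and 10.

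Lhb had other neighbours. They were Adam8 (0.922), Fmo1 (0.887), Casp4 (0.876), Mmp14 (0.856) and Proser2 (0.847), where Adam8 and Mmp14 encode metalloproteases and Casp4 an inflammatory caspase. All these arrays share their normalization, and the r values are descriptions.

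Nmu and Dct by rat show the same array at the bottom. Nmu signals were 171.3, 102.6, 86.34 and 146.4 with restraint and linalool, 94.65, 124.8, 90.89 and 150.6 with linalool, 164.4, 169.5, 107.1 and 148.7 with restraint, and 180.7, 125.8, 6.115 and 177.7 in control rats. Dct signals were 511.7, 191.9, 156.9 and 308.9 with restraint and linalool, 203.2, 268.9, 218 and 275.1 with linalool, 476.6, 369, 369.9 and 381.2 with restraint, and 640.7, 449, 74.71 and 377.7 in control rats. Restraint with linalool rat 1 was the highest of its group for Cga, Tshb, Nmu and Dct alike. Neither gene passed the test for the average linalool difference, which was 0.042 for Nmu (adjusted p = 0.966) and -0.45 for Dct (adjusted p = 0.545), and without control rat 3 -0.33 (adjusted p = 0.341) and -0.76 (adjusted p = 0.107).

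**Figure D3:**
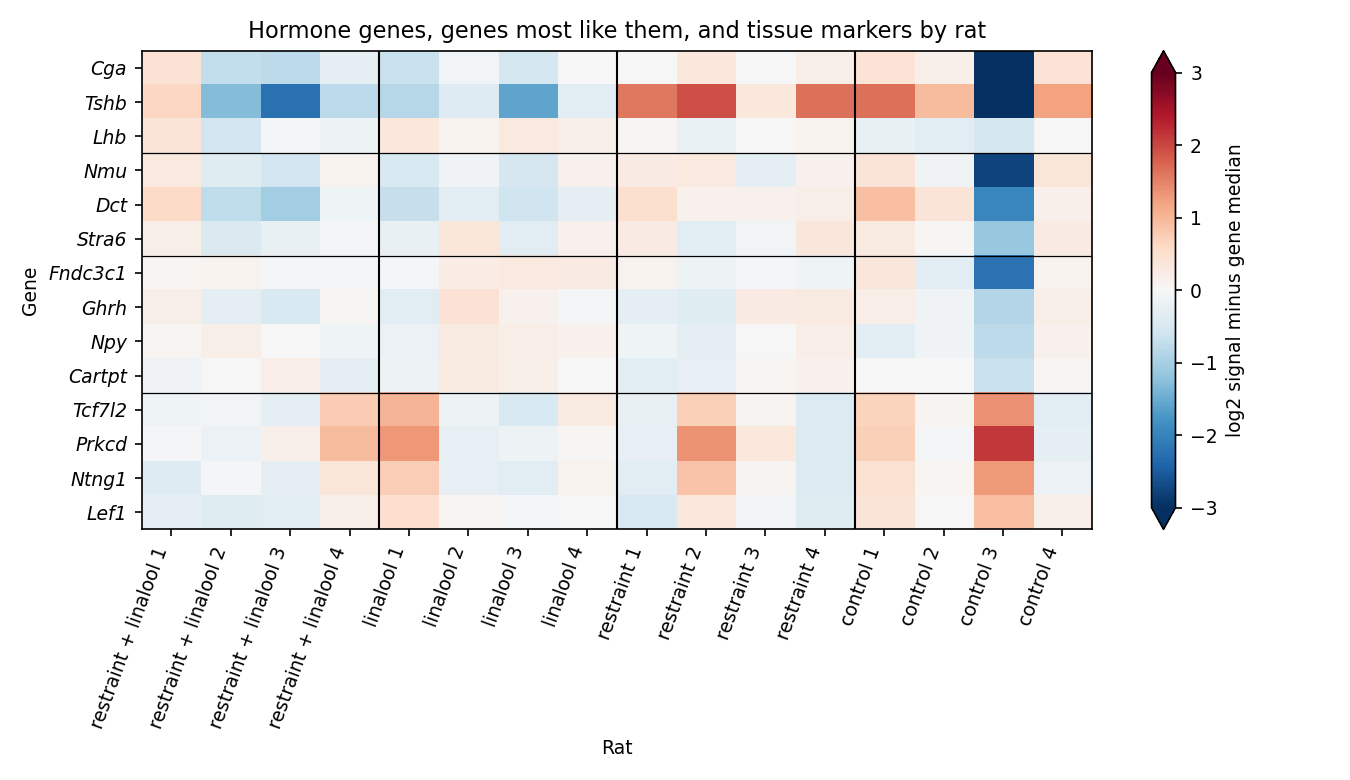
Signals of Cga, Tshb and Lhb (top block), genes most like them (second), tanycyte and arcuate markers (next) and thalamic markers (bottom) in each rat, as the log2(signal + 16) difference from the gene's median over 16 arrays; colours stop at 3 in either direction. Control rat 3 is low in the upper blocks and high in the thalamic one, but the markers drawn were picked after their values were seen. Over the whole lists it was lowest for 3 of 9 markers of posterior lobe, median eminence and tanycytes. It was lowest for 6 of 16 hypothalamic markers and highest for 5 of 8 thalamic markers. Also high in Tcf7l2 and Prkcd are restraint with linalool rat 4, linalool rat 1, restraint rat 2 and control rat 1. Their Cga signals are 2980, 2296, 4565 and 4869.

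With all 16 arrays, 0 of the 5 hormone genes were called in any of 7 comparisons. The count was 0 of the 3 that passed the filter for restraint with linalool minus linalool (1.69% of all probe sets called), restraint with linalool minus restraint (0.65%), linalool minus control (0%) and restraint minus control (0.902%). It was also 0 for restraint averaged over odour (4.21% called), linalool averaged over restraint (0.714%) and the interaction (0%). At an unadjusted limma p under 0.05, 1831 probe sets (9.83%) passed for linalool minus control and 1489 (7.99%) for the interaction. Without control rat 3, the count was 1 of 3 for restraint with linalool minus restraint (0.623% of all probe sets called) and for linalool averaged over restraint (0.424%), Tshb in both. It was 0 for restraint with linalool minus linalool (1.63%), restraint minus control (0.408%), restraint averaged over odour (3.39%), linalool minus control (0%) and the interaction (0%). Gh1 and Prl, tested in a fit without the filter, had adjusted p of at least 0.477 throughout.

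Whether Tshb was called lower in linalool-exposed than in unexposed rats depended on control rat 3. Its average linalool difference over all arrays was -1.59 on the log2 scale (SE 0.61, limma adjusted p = 0.239), a ratio of 0.332. Without control rat 3 it was -2.18 (SE 0.36, adjusted p = 0.0246), a ratio of 0.221, and passed the test. Then all 4 linalool rats (190.4 to 486.8) were below all 3 remaining control rats (1186 to 1943), whereas the omitted rat (41.43) was below them all. How many of all probe sets separate in this way was not counted. For linalool minus control without that rat, 8.79% of all probe sets had an unadjusted limma p under 0.05. Among restrained rats, Tshb differed by -2.30 with linalool (SE 0.87, adjusted p = 0.266), and without control rat 3, which enters this contrast only through the shared estimate of spread, the same -2.30 (SE 0.49) had an adjusted p of 0.0483. Both calls made without control rat 3 were lost with no filter and with the BioC split as a block (adjusted p 0.0728 to 0.114), and the call among restrained rats held in only 4 of 15 fits that left out a further rat. For linalool minus control the difference was -0.88 (SE 0.87, adjusted p = 0.763), and -2.06 (SE 0.53, adjusted p = 0.369) without that rat.

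An exact permutation test on Tshb alone, which reassigned the linalool label within restrained and within unrestrained rats, was added after the values were seen. Over 4900 assignments the exact test gave p = 0.0457, adjusted to 0.0914 over the 4 values so tested. Without control rat 3 the exact test gave p = 0.000816 (adjusted 0.00163). The 4 values were Tshb, Cga, Lhb and the Tshb minus Cga difference described below. That difference was chosen on these rats, and its place in the adjustment makes the adjusted p of Tshb smaller than over genes alone. On the 12 arrays of low BioC signal without that rat the difference was -2.34, with an exact p of 0.00571 (adjusted 0.0114). The limma fit on those 12 arrays did not call Tshb (adjusted p = 0.184). Control rat 3 is an unexposed rat left out after its low Tshb was seen. P-values without it, by either test, are therefore descriptions.

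**Figure D4:**
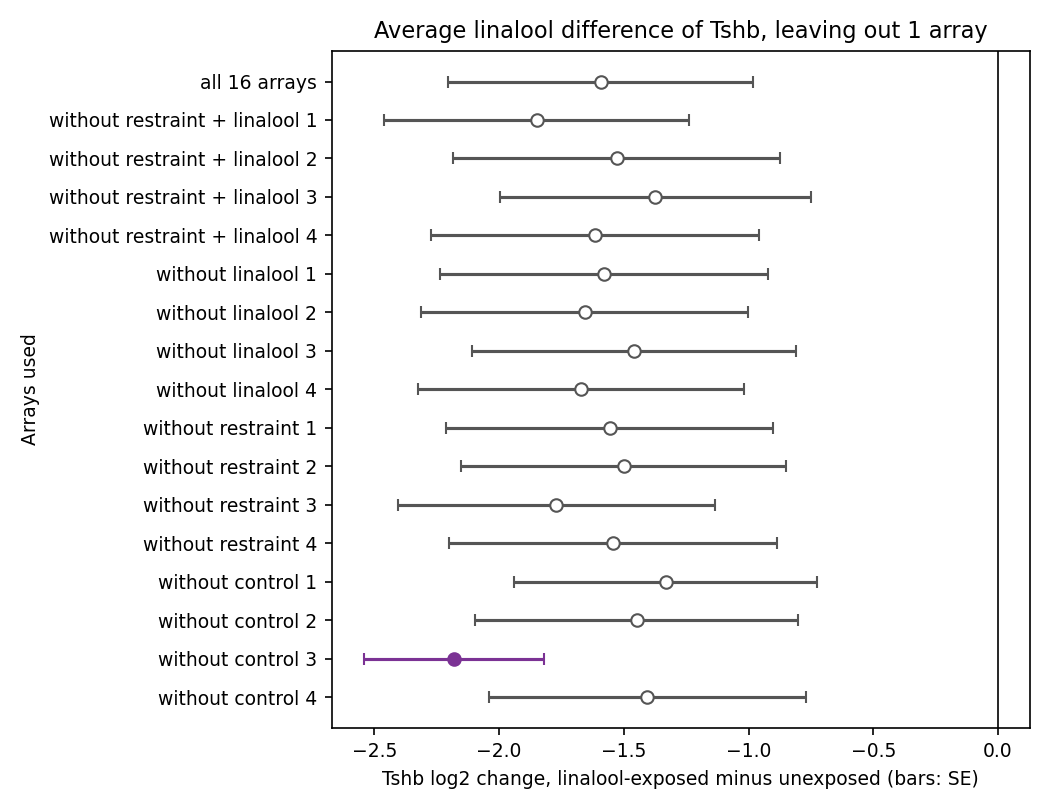
Average linalool difference of Tshb on the log2 scale (horizontal axis, linalool-exposed minus unexposed, bars are SE) with all 16 arrays and with each array left out in turn. All 17 values are negative; the filled point, without control rat 3 at -2.18, is the only one past an adjusted p of 0.05.

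Cga showed no called difference with or without control rat 3. Its average linalool difference was 0.11 (SE 0.59, limma adjusted p = 0.952) with all arrays and -0.56 (SE 0.16, adjusted p = 0.15) without that rat. Exact tests on Cga alone gave p = 0.994 with all arrays and 0.011 without that rat (adjusted 0.0147 over the same 4 values). That rat, an unexposed one, was left out after its low Cga was seen, so p-values without it are descriptions. The average restraint difference was 0.55 (SE 0.59, adjusted p = 0.68) and turned to -0.12 (SE 0.16) without it. For Tshb the average restraint difference was 0.57 (SE 0.61, adjusted p = 0.676), and -0.021 (adjusted p = 0.987) without that rat.

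As a description built after the values were seen, Tshb was also set against Cga within each rat. On the log2 scale, Tshb minus Cga was -2.38, -3.14, -4.02 and -3.06 with restraint and linalool, -2.76, -2.88, -3.64 and -2.89 with linalool, -0.98, -0.96, -2.26 and -1.09 with restraint, and -1.32, -1.76, -1.03 and -1.78 in control rats. The exposed rats were all below the unexposed rats, although restraint rat 3 (-2.26) came close to restraint with linalool rat 1 (-2.38). In control rat 3 both signals were low, and its Tshb (41.43) lay within the range of Gh1 (19.94 to 48.34), so that the added 16 shrinks its difference and its place carries no weight. Without that rat, the exposed rats averaged -3.09 ± 0.52 and the unexposed rats -1.45 ± 0.50 (SD). No p is given for this difference, since it was chosen on these rats. Its zero has no meaning because the probe sets differ in brightness.

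**Figure D5:**
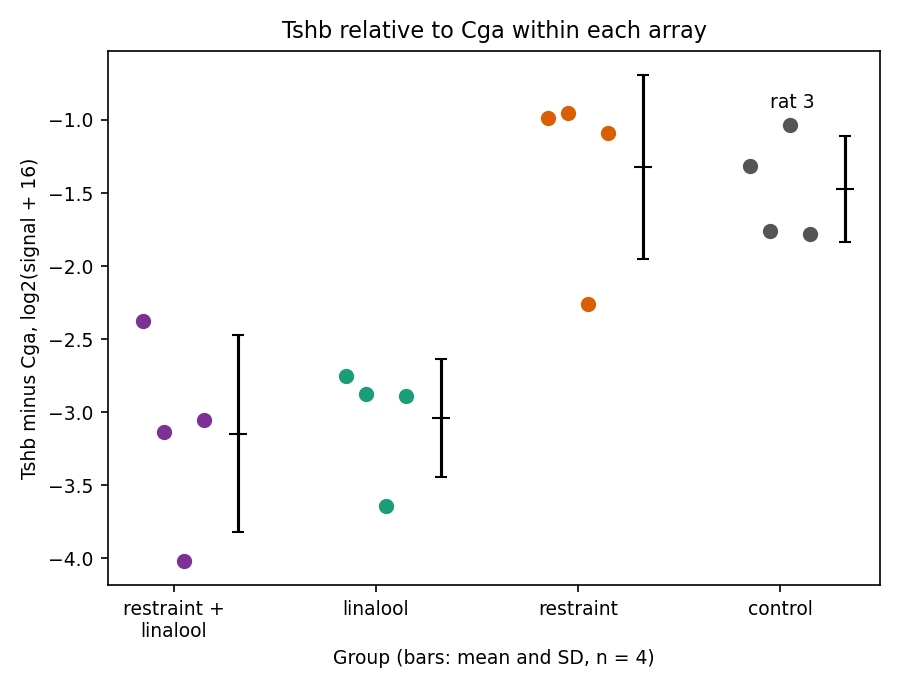
Tshb minus Cga on the log2(signal + 16) scale in each rat by group; points are rats, bars the mean with SD (n = 4). The 8 linalool-exposed rats lie between -4.02 and -2.38 and the 8 unexposed rats between -2.26 and -0.96, with control rat 3, in which both signals are low, at -1.03.

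Markers of the hypothalamus and of neighbouring tissue are given for the same groups. The 8 thalamic markers summed to 6091 to 7371 with restraint and linalool, 6368 to 8872 with linalool, 6188 to 8193 with restraint and 6178 to 9397 in control rats. The 9 markers of posterior lobe, median eminence and tanycytes summed to 3582 to 4756 with restraint and linalool, 2979 to 4272 with linalool, 3699 to 4455 with restraint and 3614 to 4271 in control rats. The 16 hypothalamic markers summed to 22190 to 28760 with restraint and linalool, 22100 to 31290 with linalool, 20590 to 27520 with restraint and 20880 to 26750 in control rats. A few bright genes carry these sums, such as Vim (median 2271) in the median eminence list and Slc17a6 (2818) and Calb2 (2153) in the thalamic list. All of these ranges overlapped between exposed and unexposed rats.

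A mean over each list of the log2 difference from the gene's median, added after the values were seen, weights the genes equally. For thalamic markers it was -0.14 to 0.30 with restraint and linalool, -0.13 to 0.61 with linalool, -0.31 to 0.47 with restraint and -0.23 to 0.81 in control rats. For the median eminence list it was 0.008 to 0.14 with restraint and linalool, -0.26 to 0.16 with linalool, -0.15 to 0.10 with restraint and -0.43 to 0.18 in control rats. Control rat 3 had the highest thalamic value (0.81) and the lowest median eminence value (-0.43), and the ranges again overlapped between exposed and unexposed rats. Much of its median eminence value comes from 1 gene, Fndc3c1 (-2.22 in that rat), which did not pass the filter on low signal. A mean without Fndc3c1 was not made, so the place of control rat 3 as lowest rests on that gene. The part of tissue composition in the Tshb differences was not tested.

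Lhb differed by 0.49 between linalool and control rats (SE 0.16, limma unadjusted p = 0.00655) and did not pass the test (adjusted p = 0.345). Its interaction was -0.57 (SE 0.22, adjusted p = 0.564), and its average linalool difference was 0.20 (SE 0.11, adjusted p = 0.415).

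Among hypothalamic regulators of these hormones, few passed the test. Of 20 genes on the list 19 were measured and 17 passed the filter. For linalool averaged over restraint, 1 of the 17 rose and 0 fell, beside 0.714% of all probe sets called, with a list median of 0.052 beside -0.008 over all probe sets. The gene was Sst, encoding somatostatin, which inhibits growth hormone and thyrotropin release (0.37, adjusted p = 0.0421), and 0 were called without control rat 3, where Sst was lowest (1008, against at least 1200 in the others). Trh, encoding the releasing hormone for thyrotropin, had an average linalool difference of 0.49 (adjusted p = 0.068). It was 0.052 for Ghrh (adjusted p = 0.916), 0.19 for Gnrh1, the gonadotropin-releasing hormone gene (adjusted p = 0.583), and -0.10 for Th, the first enzyme of dopamine synthesis (adjusted p = 0.823).

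For restraint averaged over odour, 1 of 17 fell and 0 rose, beside 4.21% of all probe sets called. The gene was Tac3, encoding neurokinin B of the arcuate neurons that drive gonadotropin release (-0.41, adjusted p = 0.00666). Tac3 also fell for restraint with linalool minus linalool (-0.48, adjusted p = 0.0363), beside 1.69% of all probe sets called. For restraint minus control 1 of 17 rose, beside 0.902% of all probe sets: Ddc, the second enzyme of dopamine synthesis (0.70, adjusted p = 0.0351), and 0 were called without control rat 3. Th differed by 1.07 in that comparison (adjusted p = 0.0515), and Slc6a3, the dopamine transporter gene, by 1.81 (adjusted p = 0.0958).

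Genes for hormone receptors and their feedback (8 of 18 measured passed the filter) and for prohormone processing and secretory granules (13 of 13 passed) had 0 called members for linalool or restraint averaged over the other factor and for restraint with linalool minus restraint. The shares called over all probe sets were 0.714%, 4.21% and 0.65%, so a count of 0 sets neither list apart. Their median average linalool differences were 0.039 and 0.031, beside -0.008 over all probe sets.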

How the data were processed

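RNA of 16 rat hypothalami was measured on 1 Affymetrix array each. The authors deposited 1 table of linear signal intensity for 31099 probe sets. MAS5 is named per the submitters' processing notes, and the target it scaled to is not stated there. The fixed design had assumed arrays at a common level. They were not, so log2 intensities were quantile-normalized, transformed back, raised by 16 and taken as log2. The 57 control probe sets were left out, and 18625 of 31042 passed the filter, a mean log2 value at or above the 40th percentile. Of the 31042, 20826 had 1 gene symbol in the platform table, 436 several and 9780 none. limma 3.58.1 (R 4.3.3) fitted 1 group-means model with 12 residual degrees of freedom. The fit was tested on simulated data. The labels give each array its own rat, so p-values measure the spread between rats, and the number of arrays limits precision.

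The hormone genes and gene lists were chosen with earlier results of these data known. The text names the 5 hormone genes, Ghrh, Sst, Trh, Gnrh1 and Th, up to 4 genes of a list, the 5 genes most like each hormone gene and the genes that set control rat 3 apart. The last, and the markers given by rat, were named after their values were seen. Alternatives covered scaling, pseudocount, filter, the BioC split, array weights, replicate number as a block and each rat left out.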

Additional observations from a re-analysis of the deposited data

Results flagged for a closer look

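Control rat 3 was set apart from the other 3 control rats by its gap to the nearest of them, as a share of the group's whole range on the log2 scale. That share was 0.948 for Cga (signal 101.7, against 4052 to 4916 in the other control rats) and 0.862 for Tshb (41.43, against 1186 to 1943). Both exceed the 95% critical value for 4 samples, which chance passes in about 1 of 20 groups. Of 20 gene and group combinations examined, these 2 passed it. The same rat had the lowest Nmu, Dct and Fndc3c1 signals and the highest Prkcd and Tcf7l2 signals of all 16. The part of these markers in its low Cga and Tshb was not tested.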

How the results depend on the processing

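Control rat 3 was the only rat whose omission changed a count of called hormone genes in the 7 comparisons. The count of hormone genes called was then 1, against 0, for restraint with linalool minus restraint and for linalool averaged over restraint, and leaving out any rat in turn gave 0 to 1. The range over single omissions crossed 0 for the Cga average linalool difference (-0.56 to 0.34), average restraint difference (-0.12 to 0.78) and interaction (-1.63 to 0.17), and for the Tshb average restraint difference (-0.021 to 0.83); the Cga average linalool difference was -0.024 without restraint with linalool rat 1. Over 11 other settings the Tshb average linalool difference stayed between -1.75 and -1.50 (adjusted p 0.0955 to 0.507).

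Without control rat 3 the Tshb call for linalool averaged over restraint was lost with no filter (-2.18, adjusted p = 0.0728), with the BioC split as a block (-2.29, 0.114) and on low-BioC arrays (-2.34, 0.184). A further omitted rat gave -2.44 to -1.96 (adjusted p 0.00657 to 0.0541), called in 11 of 15. For restraint with linalool minus restraint it was lost with pseudocount 1 (-2.37, 0.0587), no filter (-2.30, 0.0976), the block (-2.37, 0.0769) and low-BioC arrays (-2.17, 0.211), and a further omitted rat gave -2.82 to -1.86, called in 4 of 15. The causes were not tested.

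The rats' numbers were not taken as pairs: same-numbered rats of different groups correlated at -0.164 to 0.226, above 0.1 in 4 of 24 pairs, and 5 of 16 arrays were most like an array of their own number. Rat 3 was nevertheless the lowest of its group for Tshb in all 4 groups. With the replicate number as a block, Tshb had -1.59 (SE 0.40 against 0.61, adjusted p = 0.0955) for linalool averaged over restraint and, without control rat 3, -2.004 (0.012). All probe sets called for that comparison numbered 133, against 84 with the replicate block, 1 with values as deposited, 31 with no filter, 66 with a 20th percentile filter, 1 with the BioC block, 0 on low-BioC arrays, 327 with the 3'/5' actin ratio, a sign of RNA quality, as a covariate and 236 with array weights. The Cga and Tshb correlation stayed between 0.849 and 0.949.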

Other observations

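The markers of neighbouring tissue varied between single rats in other ways too. Ttr, encoding transthyretin, which the choroid plexus makes in large amounts, had signals of 193.6, 80.01, 93.93 and 583.9 in rats given restraint with linalool, 77.61, 98.97, 74.14 and 132.3 with linalool, 160.4, 93.78, 88.16 and 102 with restraint, and 103.4, 76.61, 60.04 and 139.2 in control rats. Restraint with linalool rat 4 was thus alone at the top, while its Cga signal (2980) and Tshb signal (344.4) lay inside their group's range. The dopamine transporter gene Slc6a3 is used by midbrain and some hypothalamic neurons. It ran between 675.1 and 1320 in restraint rats and between 63.41 and 471.9 in control rats, with no overlap. How many of all probe sets separate in this way was not counted. For restraint minus control 12.6% of all probe sets had an unadjusted limma p under 0.05, and Slc6a3 was not called (limma adjusted p = 0.0958). Control rat 4 was the lowest rat for Slc6a3 and had the control group's highest Cga signal (4916). The thalamic gene Prkcd was high in restraint with linalool rat 4 (414.7), linalool rat 1 (535) and restraint rat 2 (555) as well as in control rat 3 (959.4), and Cga in those rats was 2980, 2296, 4565 and 101.7. Next in Prkcd came control rat 1 (351.8), with a Cga signal of 4869.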
